A study of Homo sapiens with 38 samples.

Results

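The RING1 and PCGF genes encode the core of Polycomb repressive complex 1 (PRC1), and their promoters were examined as places where the studied proteins bind. The group held 8 genes of the 19970 protein-coding genes annotated, chosen by name: RNF2 (which encodes RING1B), RING1 (RING1A), PCGF1, PCGF2 (also called MEL18), PCGF3, BMI1 (PCGF4), PCGF5 and PCGF6. Each gene was represented by the 1500 bp on either side of the transcription start site (TSS) of its canonical transcript. Binding was mapped by CUT&RUN, which sequences the DNA that an antibody-tethered nuclease cuts free around a chromatin protein, in the human lung cancer lines NCI-H661 (H661) and NCI-H1299 (H1299). H661 was the parental line, without doxycycline, and makes its own DPPA2 and DPPA4, a pair of DNA-binding SAP domain proteins of the early embryo. Derived from it were the hairpin lines shDPPA4, in which doxycycline induces a short hairpin RNA to DPPA4, and shDPPA2+4, which adds another to DPPA2. Both were grown for 7 days in water (control) or 2 µg/mL doxycycline (dox). H1299 carried DPPA2 with a Flag tag and DPPA4 with a V5 tag, both inducible with doxycycline, and was profiled after the same dose and time. The parent H1299 line does not express either protein. All lines with inducible constructs were made by PiggyBac transposition and sorted in bulk, so that none of them is a single clone. An H1299 arm without the tagged proteins was not analysed here.

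PRC1 places ubiquitin on histone H2A. RING1B or RING1A is the catalytic subunit and pairs with a PCGF protein, and the PCGF protein sets the kind of complex. PCGF2 and BMI1 form canonical PRC1 with CBX and PHC proteins, which reads the mark of Polycomb repressive complex 2 (PRC2). PCGF1 (with KDM2B and BCOR), PCGF3 and PCGF5 (with AUTS2 and casein kinase 2) and PCGF6 (with MGA, MAX, E2F6 and L3MBTL2) form variant PRC1, which also gathers at CpG-rich promoters. MTF2, profiled beside RING1B and PCGF1, belongs to the PRC2.1 form of PRC2, and EP300 is a histone acetyltransferase of active chromatin.

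The GC content of the 8 promoters ran from 58.4% (PCGF6) to 75.5% (BMI1) in the TSS ± 500 bp, and 7 of them lay above the median of 61.3% over all promoters. The ratio of observed to expected CpG ran from 0.639 (PCGF2) to 0.980 (BMI1), against a median of 0.725. BMI1 and RNF2 (0.941) stood at the 97.2nd and 93.8th percentiles of all promoters for this ratio, and PCGF2 at the 37.1st percentile. RefSeq held a promoter of 300 bases (250 before the TSS to 50 after it) at the canonical TSS of 7 of the 8 genes, PCGF2 being the exception. Those of RNF2 and RING1 had 41 CG dinucleotides each, PCGF3 had 38, BMI1 36, PCGF5 35 and PCGF6 28, whereas PCGF1 had 14, the median of all such promoters. Below are 4 of them in the RefSeq sequence of GRCh38.p14, in the direction of transcription and with each CG in capitals. PCGF1 had the highest density of RING1B, BMI1 that of MTF2, RNF2 encodes RING1B and carries it at its own promoter, and PCGF5 was bound in the fewest libraries. They lie at chr2:74507646-74507945 (minus strand, PCGF1), chr10:22320849-22321148 (plus strand, BMI1), chr1:185045308-185045607 (plus strand, RNF2) and chr10:91220413-91220712 (plus strand, PCGF5).
PCGF1: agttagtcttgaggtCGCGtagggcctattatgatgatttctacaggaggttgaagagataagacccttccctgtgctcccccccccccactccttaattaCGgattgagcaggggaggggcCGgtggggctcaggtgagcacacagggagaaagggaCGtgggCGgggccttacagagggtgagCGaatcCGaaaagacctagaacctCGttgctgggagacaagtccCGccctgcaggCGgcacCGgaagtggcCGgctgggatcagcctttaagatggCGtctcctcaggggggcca
BMI1: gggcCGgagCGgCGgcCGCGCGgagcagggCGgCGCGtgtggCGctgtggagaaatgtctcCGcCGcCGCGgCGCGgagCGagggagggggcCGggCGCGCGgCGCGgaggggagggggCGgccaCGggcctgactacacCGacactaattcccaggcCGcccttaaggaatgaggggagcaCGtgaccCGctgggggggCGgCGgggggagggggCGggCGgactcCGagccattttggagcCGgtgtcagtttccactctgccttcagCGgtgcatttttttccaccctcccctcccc
RNF2: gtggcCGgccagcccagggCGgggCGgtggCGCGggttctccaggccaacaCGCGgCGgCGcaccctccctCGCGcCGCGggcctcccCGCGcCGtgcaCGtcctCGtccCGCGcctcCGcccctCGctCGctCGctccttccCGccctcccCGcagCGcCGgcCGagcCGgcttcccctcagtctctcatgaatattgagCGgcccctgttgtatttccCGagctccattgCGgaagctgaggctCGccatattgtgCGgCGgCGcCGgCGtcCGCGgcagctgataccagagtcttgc
PCGF5: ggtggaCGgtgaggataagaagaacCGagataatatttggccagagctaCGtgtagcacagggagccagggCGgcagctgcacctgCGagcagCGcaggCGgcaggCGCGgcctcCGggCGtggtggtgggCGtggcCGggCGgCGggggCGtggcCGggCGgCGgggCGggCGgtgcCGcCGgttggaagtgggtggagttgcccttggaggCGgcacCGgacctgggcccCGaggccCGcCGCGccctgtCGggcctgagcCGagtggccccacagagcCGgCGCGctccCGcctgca
The order by CG number was not the order by binding, since PCGF5 with 35 CG was bound in the fewest libraries and PCGF1 with 14 in the most. The letters CACGTG (an E-box, the same on both strands) occurred in the RefSeq promoter of BMI1 and of no other member, and in 7.26% of 35116 RefSeq promoters. TTCCCGC (an E2F-type motif, searched on both strands) occurred in that of RNF2 alone and in 6.55% of promoters. The motifs do not overlap.

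Around these promoters the annotation placed a few other starts. The TSS of RING1 (ENSG00000204227.5, chromosome 6, position 33208500, plus strand) lay 27 bp from that of the long noncoding RNA ENSG00000288751 on the opposite strand and 665 bp from MIR219A1, so that signal there can belong to any of the 3. The PCGF2 TSS (ENSG00000277258.5, chromosome 17, 38748336, minus strand) had the long noncoding RNA ENSG00000277182 starting 1024 bp upstream on the other strand, a PCGF2 start of its own 1481 bp upstream and the proteasome gene PSMB3 4405 bp upstream. BMI1 (ENSG00000168283.14, chromosome 10, 22321099) had COMMD3 starting 4713 bp upstream. PCGF5 (ENSG00000180628.15, chromosome 10, 91220663) had another coding transcript starting 57651 bp upstream, which was not used here. The other starts were RNF2 (ENSG00000121481.11, chromosome 1, 185045558, plus strand), PCGF1 (ENSG00000115289.14, chromosome 2, 74507695, minus strand), PCGF3 (ENSG00000185619.19, chromosome 4, 705832, plus strand) and PCGF6 (ENSG00000156374.16, chromosome 10, 103351140, minus strand).

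There were 38 libraries. Besides 8 IgG controls, 30 came with enriched regions from 2 callers, EPIC2 (domains) and MACS2 (peaks). H661 and its derived lines had 1 library per antibody and arm, hence no SD and no p-value, and their intervals cover counting error only. H1299 had 6 antibodies with 2 replicates each, which the labels do not tie to separate cultures, so p-values there measure the spread between libraries. The EPIC2 domains kept held 48262 reads (Flag monoclonal antibody, H1299 replicate 2) to 6850681 reads (MTF2, shDPPA2+4) per library. Between 5.27% (again that Flag library) and 71.7% (DPPA4, shDPPA4 control) of all promoters touched a domain. H1299 replicate 2 libraries had fewer domains than replicate 1 libraries for all 6 antibodies. In this text the promoter domain is the EPIC2 domain with most reads per kb among those touching the window, and its percentile is its rank by reads per kb among all promoters with a domain in that library. Fold is over the IgG control after scaling for library size. No fold of a single domain is given where IgG had 0 reads. Within means, medians and ranges the value of the caller is used for such domains.

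Binding was found at 7 of the 8 promoters in 20 libraries or more, and at PCGF5 in fewer. The share of all promoters bound in as many libraries was not counted, so this does not set the members apart. In single libraries 5.27% to 71.7% of all promoters had a domain. PCGF1 had a domain in 28 of 30 libraries, RNF2 and BMI1 in 27, PCGF2 in 26, RING1 in 23, PCGF3 in 21, PCGF6 in 20 and PCGF5 in 13. With MACS2 the counts were 22 for PCGF1, PCGF2 and BMI1, 20 for RNF2, 18 for PCGF6, 13 for RING1, 11 for PCGF3 and 9 for PCGF5. Where a domain was present, the median percentile was 77.8 for PCGF1 (range 14.6 to 96.8) and 69.0 for PCGF3 (25.3 to 91.6). It was 56.6 for BMI1 (7.14 to 98.9), 55.1 for PCGF2 (6.68 to 93.4) and 37.9 for RNF2 (5.49 to 89.7). The lowest were PCGF5 at 21.1 (0.513 to 56.1), RING1 at 19.0 (0.0866 to 65.6) and PCGF6 at 17.3 (5.37 to 72.2). The ranges of all 8 overlapped. These percentiles are by reads per kb, without the IgG control. By median log2 fold over IgG the order was another, with BMI1 at 3.73, PCGF2 at 3.47, PCGF6 at 3.33 and RNF2 at 3.08. PCGF5 had 3.06, PCGF3 3.01, PCGF1 2.91 and RING1 2.69. The libraries share cell lines and IgG controls, so both orders are a description.

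**Figure D1:**
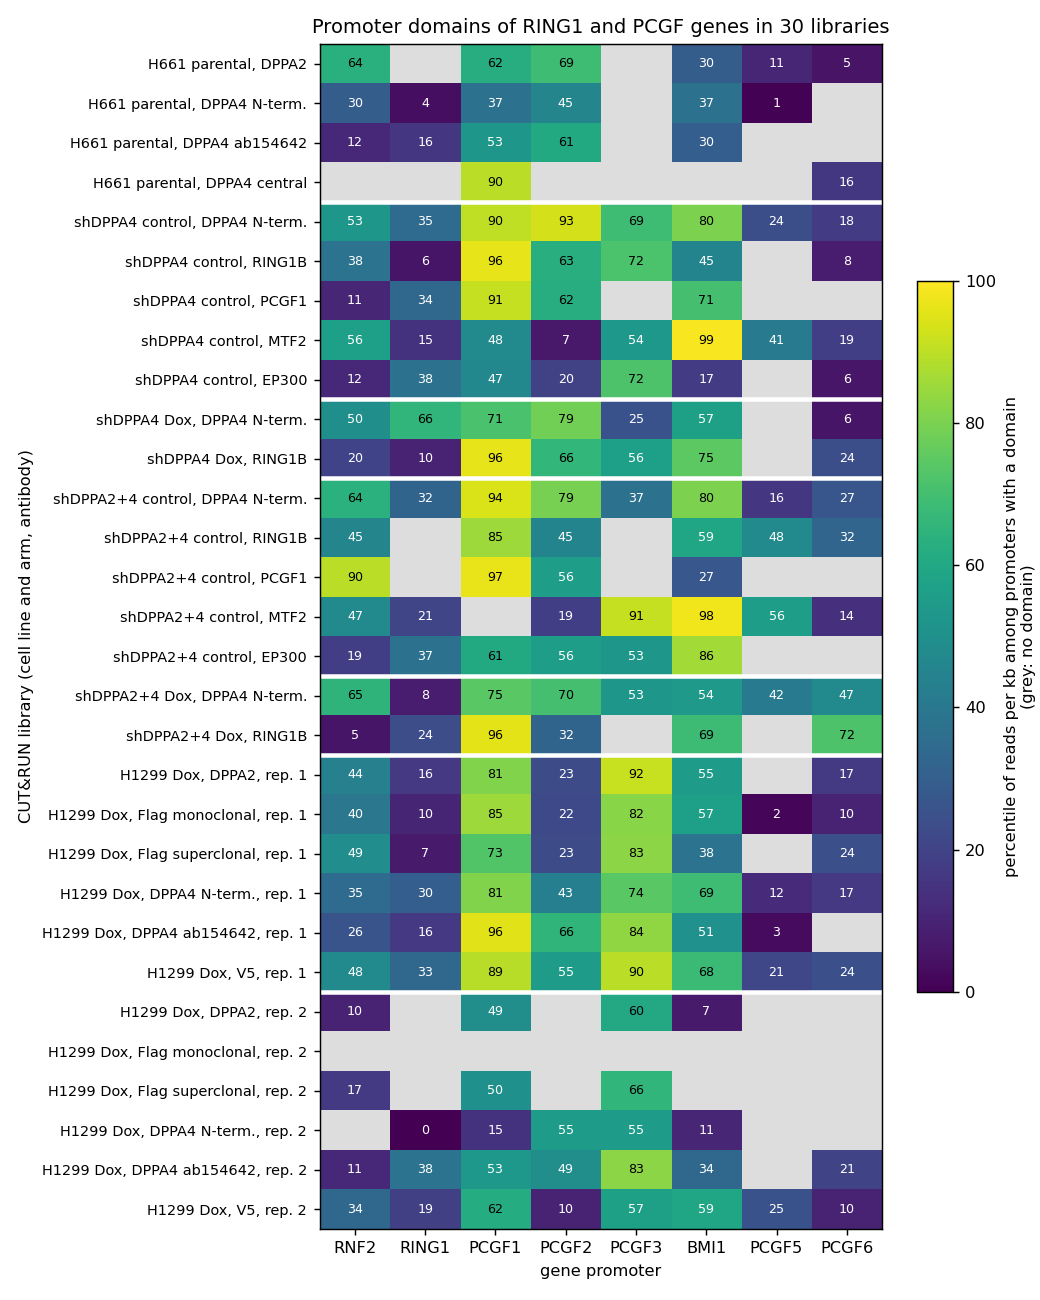
Percentile (0 to 100, colour and number) of the promoter domain's reads per kb among all promoters with an EPIC2 domain in the same library, for the 8 genes (columns) in 30 libraries (rows). Grey cells had no domain. PCGF1 is high in most rows, PCGF3 is grey in all 4 parental H661 rows, and PCGF5 has a domain in 13 rows.

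In parental H661, DPPA2 and DPPA4 had MACS2 peaks at the promoters of RNF2, PCGF1, PCGF2, BMI1 and PCGF6. These are 5 of the 8 genes with a MACS2 peak for DPPA2 and for the N-terminal DPPA4 antibody, where 39.2% of all promoters had both. By EPIC2 it was also 5 of 8 (48.2% of promoters), with PCGF5 in place of PCGF6, which had no domain for the N-terminal DPPA4 antibody. PCGF6 had no region with the DPPA4 antibody ab154642 by either caller. The strongest DPPA2 peak of the group was at PCGF1, the PCGF subunit of the KDM2B complex, at 11.3-fold, where DPPA4 had 7.52-fold. PCGF2 had 10.54-fold and 7.34-fold, and BMI1 had 8.49-fold and 8.25-fold. RNF2 had 6.88-fold and 7.32-fold. The weakest of the 5 was PCGF6, with 4.53-fold and 3.81-fold. Within all promoters with a DPPA2 peak, PCGF1 stood at the 87.3rd percentile of fold and PCGF6 at the 15.3rd.

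The other 3 promoters had less. PCGF5 had a DPPA4 peak of 4.44-fold and no DPPA2 peak, although EPIC2 gave a DPPA4 domain of 23 reads over 3 IgG reads and a DPPA2 domain of 9 reads over 1 IgG read. RING1 had neither peak, an EPIC2 domain of 11 N-terminal DPPA4 reads over 2 IgG reads, and 4.64-fold with ab154642, with the summit at -495 bp from the TSS. PCGF3 had no region with any of the 4 antibodies and by either caller. Using ab154642 for DPPA4 instead, 4 of the 8 had both proteins, as did 40.6% of all promoters. The antibody to the central region of DPPA4 had MACS2 peaks at 5.47% of promoters and at 0 of the 8. By EPIC2 it had domains at PCGF1 (6 reads over 0 IgG reads) and PCGF6 (8 reads over 0).

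In the control arms of both hairpin lines the N-terminal DPPA4 antibody gave a domain at all 8 promoters. Both lines had one at 67.1% of all promoters. PCGF3 was included, with 76 reads over 600 bp in shDPPA4 and 49 reads over 1300 bp in shDPPA2+4. Per kb, the densest were PCGF2 (211 reads in shDPPA4 and 76.1 in shDPPA2+4), PCGF1 (191 and 113) and BMI1 (154 and 77.2). The sparsest were PCGF6 (48.8 and 30.5) and PCGF5 (58.9 and 23.3). Between these lay RNF2 (99.6 and 58.3), PCGF3 (127 and 37.7) and RING1 (74.1 and 34.3). PCGF1, PCGF2 and BMI1 were the upper 3 of the 8 in both lines, at the 79.4th percentile or above. All levels are raw reads of libraries of unlike size, so they are to be compared within a library.

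RING1B, the product of RNF2, bound its own gene and 4 of the PCGF genes in both control lines. RNF2, PCGF1, PCGF2, BMI1 and PCGF6 had a RING1B domain in both, 5 of 8 where 57.6% of all promoters did. At PCGF1 RING1B had 131 reads over 1000 bp with 5 IgG reads in shDPPA4, a log2 fold of 3.91 (95% interval 2.65 to 5.55). In shDPPA2+4 it had 74 reads over 1100 bp with 15 IgG reads, a log2 fold of 1.97 (1.16 to 2.88). These were the highest RING1B densities of the 8 in each line, at the 96.2nd and 85.4th percentiles of bound promoters. By log2 fold over IgG in shDPPA2+4, PCGF1 lay below BMI1 (3.58), PCGF6 (2.99), PCGF2 (2.91) and RNF2 (2.48), and above PCGF5 (1.67).

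BMI1 and PCGF2, the canonical PCGF genes, carried the longest RING1B domains. That of BMI1 covered 4300 bp in shDPPA4 (207 reads, log2 fold 3.31, 2.47 to 4.28) and 2300 bp in shDPPA2+4 (105 reads, 3.58, 2.48 to 4.93). That of PCGF2 covered 4800 bp (291 reads, 2.43, 1.89 to 3.01) and 2200 bp (85 reads, 2.91, 1.92 to 4.09). Both lay mostly upstream of the TSS. Relative to the TSS (upstream positions negative), the PCGF2 domain reached from -4764 to 35 bp in shDPPA4 and thus ran past the PSMB3 start, and it ended at -765 bp in shDPPA2+4.

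RNF2 had 48 RING1B reads over 1100 bp in shDPPA4 (log2 fold 3.20, 1.56 to 5.52) and 35 over 900 bp in shDPPA2+4 (2.48, 1.12 to 4.19). Its percentiles of 37.9 and 45.4 placed it below the median of bound promoters. PCGF6 had 23 and 10 reads and the 7.78th and 32.5th percentiles.

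In shDPPA4 alone 7 of the 8 had a RING1B domain (63.7% of promoters), and in shDPPA2+4 alone it was 6 (60%). RING1, PCGF3 and PCGF5 had a RING1B domain in 1 line each. RING1 had 33 reads over 1400 bp with 7 IgG reads in shDPPA4 (log2 fold 1.43, 0.23 to 2.86) and none in shDPPA2+4. PCGF3 had 21 reads over 300 bp with 0 IgG reads in shDPPA4. In shDPPA2+4 its domain of 7 reads over 3 IgG reads had a log2 fold of 0.89 and missed the limit of 1, while MACS2 gave a peak of 7.13-fold. PCGF5 had none in shDPPA4 and 8 reads over 2 IgG reads in shDPPA2+4, a log2 fold of 1.67 whose interval of -0.66 to 4.94 took in 0. The domains present in 1 line alone thus held 8 to 33 reads.

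The PCGF1 antibody bound the PCGF1 gene itself most densely of the 8. PCGF1 protein had a domain in both control lines at RNF2, PCGF1, PCGF2 and BMI1, 4 of 8 where 16% of all promoters did. At the PCGF1 promoter there were 33 reads over 700 bp with 0 IgG reads in shDPPA4 and 34 reads over 600 bp with 2 IgG reads in shDPPA2+4 (log2 fold 2.43, 0.46 to 5.53). These ranked at the 91.3rd and 96.8th percentiles. RNF2 ranked at the 10.7th percentile in shDPPA4 (14 reads) and at the 89.7th in shDPPA2+4 (13 reads, 0 IgG reads), with alike read numbers over stretches of 700 and 300 bp. In its densest domain BMI1 had 14 and 34 reads, and PCGF2 had 45 and 12, over stretches that differed between the lines. A further domain in the window held 14 reads at BMI1 in shDPPA4. At PCGF2 a further one held 12 reads in shDPPA4 and 40 in shDPPA2+4. RING1 had a domain of 10 reads over 1 IgG read in shDPPA4 only, with a log2 fold of 2.201 whose interval of -0.61 to 7.64 took in 0. PCGF3, PCGF5 and PCGF6 had none in either line. By MACS2 the PCGF1 antibody had a peak at PCGF1 (12.3-fold) and PCGF2 (5.23-fold) in shDPPA4, where 5.34% of all promoters had one, and at 0 of the 8 in shDPPA2+4, where 2.11% did.

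MTF2 was densest at BMI1. Its domain there had 776 reads over 3900 bp in shDPPA4 (log2 fold 4.96, 4.08 to 6.03) and 643 reads over 2800 bp in shDPPA2+4 (4.68, 3.70 to 5.90), at the 98.9th and 97.8th percentiles of bound promoters. In shDPPA4 it ran from -998 to 2901 bp relative to the TSS, and in shDPPA2+4 from -2098 to 701 bp. A further MTF2 domain touched the BMI1 window in shDPPA2+4, from 902 to 5101 bp (621 reads over 10 IgG reads). Both lines thus had MTF2 on both sides of the TSS. PCGF5, which RING1B hardly bound, also had a broad MTF2 domain, of 110 reads over 2000 bp in shDPPA4 (log2 fold 4.47, interval 2.58 to 7.53) and 203 reads over 2400 bp in shDPPA2+4 (3.70, 2.45 to 5.34). RNF2 had 61 and 111 MTF2 reads, and PCGF3 had 26 and 32. PCGF2, PCGF6 and RING1 had between 14 and 33 MTF2 reads and stayed at or below the 20.7th percentile in both lines.

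MTF2 thus had a domain in both lines at 7 of 8 promoters, where 56.4% of all promoters did. PCGF1 was the exception. It had 78 reads in shDPPA4 (log2 fold 2.65), and in shDPPA2+4 its 106 reads over 17 IgG reads had a log2 fold of 0.996, just under the limit of 1. MTF2 and the PCGF1 antibody therefore differed in which of the 8 they ranked highest, BMI1 for the former and PCGF1 for the latter, in both lines. EP300 had domains in both lines at RNF2, RING1, PCGF1, PCGF2, PCGF3 and BMI1, 6 of 8 where 45.6% of all promoters did. All of its domains there held few reads, from 7 (RING1, shDPPA4) to 62 (PCGF2, shDPPA4). PCGF6 had 13 EP300 reads over 1 IgG read in shDPPA4 only (log2 fold 3.24, interval 0.50 to 8.65), and PCGF5 had none.

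**Figure D2:**
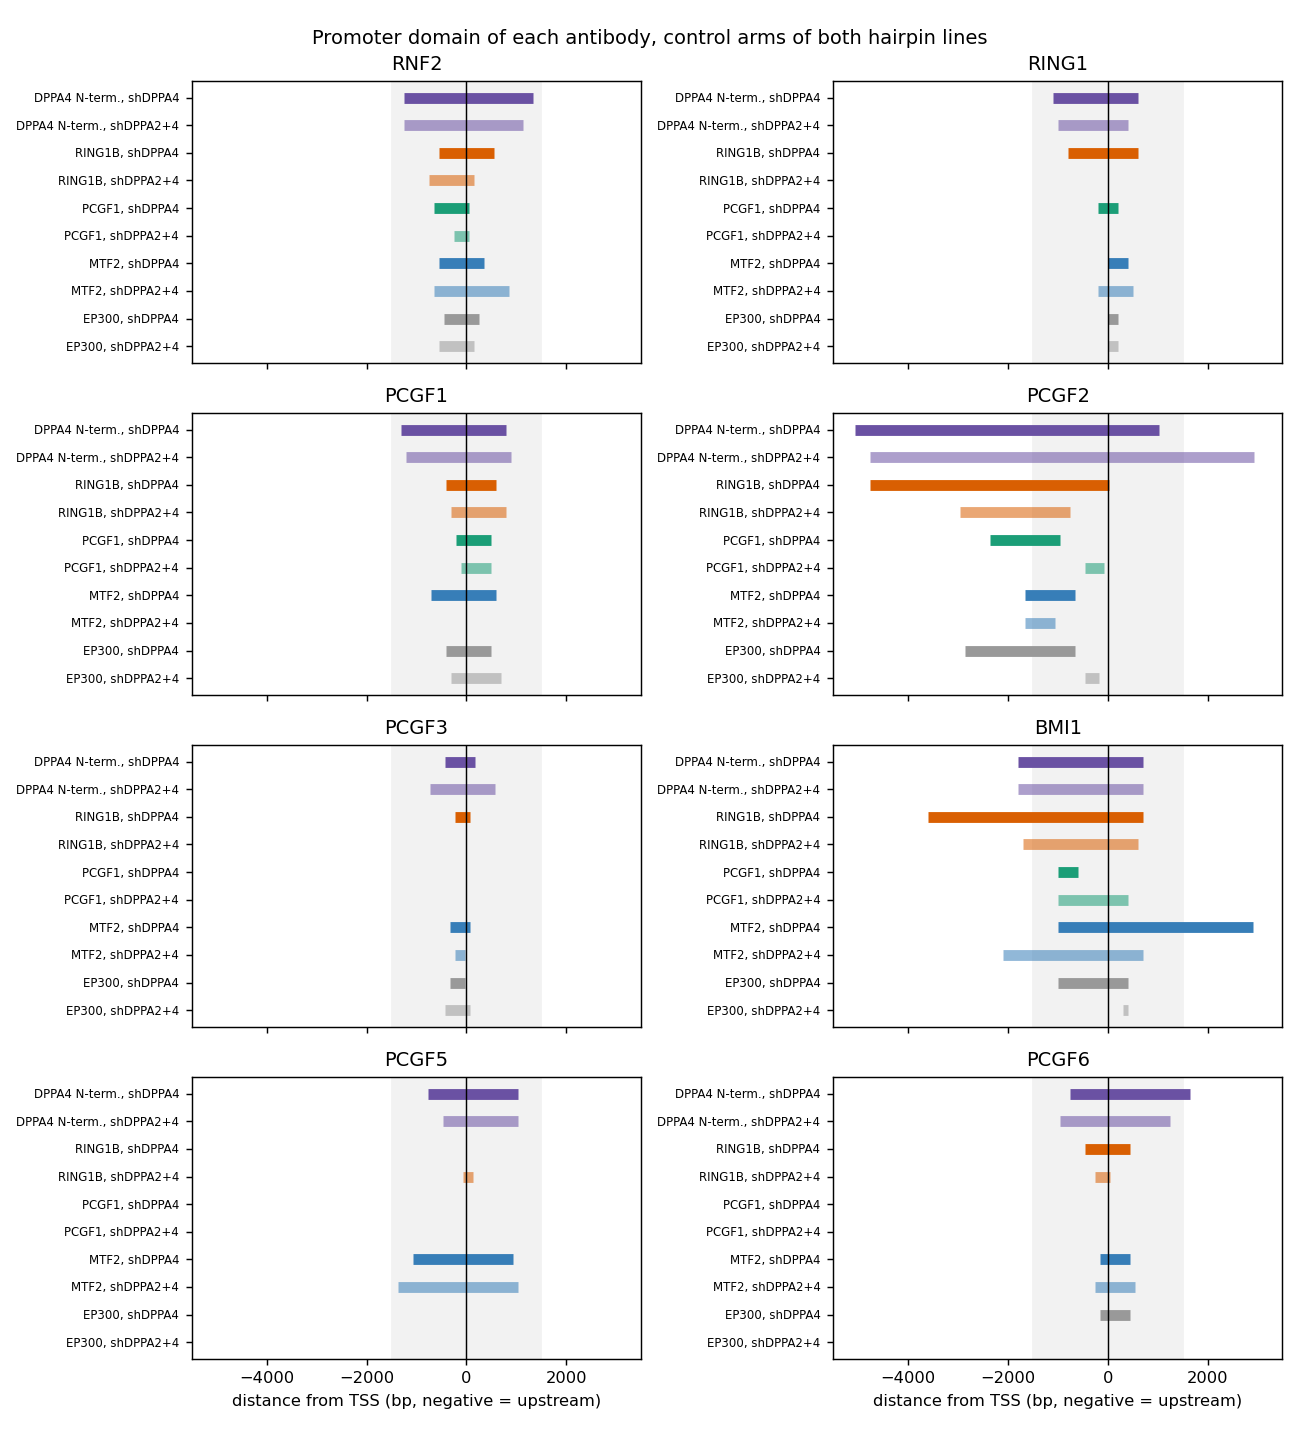
Extent of the promoter domain (bars) of 5 antibodies in the control arms of shDPPA4 (full colour) and shDPPA2+4 (pale), by distance from the TSS in bp, for the 8 genes. The grey band is the window of 1500 bp on either side. Bars at PCGF2 lie mostly upstream of the TSS, MTF2 bars are longest at BMI1 and PCGF5, and PCGF3, PCGF5 and PCGF6 have no bar for the PCGF1 antibody.

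The position of the peaks differed among the genes. At PCGF1 the MACS2 summit lay at 40 bp from the TSS for RING1B in both control lines, which is downstream. At RNF2 it lay upstream, at -133 bp in shDPPA4 and -235 bp in shDPPA2+4, and at PCGF6 at -142 and -233 bp. At BMI1 it lay at -169 bp in shDPPA4 and -882 bp in shDPPA2+4, and at PCGF2 at -260 and -2354 bp. For DPPA2 in parental H661 the summit was at 78 bp at PCGF1, at -107 bp at RNF2 and at -2352 bp at PCGF2. The PCGF2 promoter was thus marked by a broad stretch upstream of its canonical start that held its upstream start and the noncoding RNA's start.

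To ask how binding changed when DPPA4, or DPPA2 and DPPA4, were depleted, dox and control arms were compared for DPPA4 and RING1B. The change is the log2 ratio of reads per kb of the promoter domain, per library read. The dox library was 1.28 times (RING1B, shDPPA4), 1.62 times (RING1B, shDPPA2+4), 0.561 times (DPPA4, shDPPA4) and 1.93 times (DPPA4, shDPPA2+4) as large as its control, so that the scaling sets the overall level. Over all promoters with a domain in both arms the median change of DPPA4 was -0.36 in shDPPA4 and -0.61 in shDPPA2+4, and that of RING1B was -0.29 and -0.72. Domains were called separately in each arm and differ in length. The text therefore also gives the reads summed over all domains touching the window, per library read, with the length they cover, a measure added after the data were seen. By summed reads the median promoter had -1.38 (DPPA4, shDPPA4), -1.15 (DPPA4, shDPPA2+4), -0.043 (RING1B, shDPPA4) and -0.69 (RING1B, shDPPA2+4). Neither measure compares a fixed stretch of DNA. RNA of DPPA2 and DPPA4 was not measured in these files, so the knockdown is seen here only through the DPPA4 signal. The authors checked it in these hairpin lines by RT-qPCR of both genes and by a western blot of DPPA2, after 7 days of induction.

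DPPA4 at PCGF1 and BMI1 was lower with dox in both lines, by density and by summed reads, with and without scaling. At PCGF1 the density went from 191 to 65.3 raw reads per kb in shDPPA4, a change of -0.71 (-1.02 to -0.42), and from 113 to 92.0 in shDPPA2+4, a change of -1.25 (-1.53 to -0.96). Its summed reads went from 424 over 2900 bp to 124 over 1900 bp and from 238 over 2100 bp to 184 over 2000 bp, changes of -0.94 and -1.32. At BMI1 the density went from 154 to 52.9 in shDPPA4 (-0.71, -1.09 to -0.35) and from 77.2 to 66.3 in shDPPA2+4 (-1.16, -1.5004 to -0.83). Its summed reads went from 441 over 3500 bp to 74 over 1400 bp and from 210 over 3200 bp to 145 over 2700 bp, changes of -1.74 and -1.48. BMI1 was below the median promoter by both measures in both lines, whereas PCGF1 was 0.44 above it by summed reads in shDPPA4. PCGF2 had -0.69 (-0.91 to -0.48) and -0.77 (-0.94 to -0.60) by density, but its unscaled density in shDPPA2+4 was higher with dox (86.0 against 76.1).

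By density PCGF3 had the lowest value in shDPPA4, -1.06 (-1.92 to -0.29), from 76 reads to 17, and -0.16 (-0.80 to 0.48) in shDPPA2+4. RNF2 had -0.22 (-0.60 to 0.16) and -0.52 (-0.89 to -0.15), both at or above the median promoter. RING1 had -1.21 (-1.85 to -0.57) in shDPPA2+4. In shDPPA4 its value of 0.53 (-0.46 to 1.38) came from a domain of 200 bp and 12 reads, against 1700 bp and 126 reads in the control, and by summed reads it had -2.38 (-2.99 to -1.83). PCGF6 had -0.28 (-1.45 to 0.69) and 0.03 (-0.70 to 0.72). PCGF5 had no DPPA4 domain left in shDPPA4 with dox, after 106 reads in the control, and 0.29 (-0.83 to 1.30) in shDPPA2+4. By summed reads all 7 members with domains in both arms in shDPPA4 and all 8 in shDPPA2+4 had values below 0, as did 99.7% and 99.5% of promoters. At least 1.5-fold lower density was seen at 4 of the 7 genes with a domain in both arms in shDPPA4 (32.2% of promoters) and at 4 of 8 in shDPPA2+4 (52.1% of promoters). PCGF1, PCGF2 and BMI1 were among them in both lines.

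RING1B at its own gene, RNF2, gave different values by density and by reads. In shDPPA4 it had 48 reads over 1100 bp in the control and 59 over 1700 bp with dox. The density change was -0.69 (-1.26 to -0.11), while the change of reads was -0.06 (-0.64 to 0.52), and reads without scaling were higher with dox. In shDPPA2+4 it had 35 reads over 900 bp and 33 over 1500 bp, a density change of -1.51 (-2.25 to -0.79) and a change of reads of -0.78 (-1.51 to -0.05). The latter was 0.085 below the median promoter. A decrease at RNF2 in shDPPA4 was thus seen in the density of a longer domain and not in its reads.

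RING1B at BMI1 differed in sign between the 2 lines, but not under every measure. In shDPPA4 its density went from 48.1 to 74.0 raw reads per kb, a change of 0.26 (-1.9e-05 to 0.52), and its summed reads from 235 over 5200 bp to 456 over 7800 bp, a change of 0.60 (0.37 to 0.83). In shDPPA2+4 its density went from 45.7 to 50.8 raw reads per kb, a change of -0.54 (-1.02 to -0.07), and its summed reads from 122 over 2900 bp to 96 over 2100 bp, a change of -1.04 (-1.44 to -0.64). Without scaling the density was higher with dox in both lines, and relative to the median promoter it was 0.55 and 0.18 higher. In shDPPA2+4 both arms had 2 domains in the window, and the density is that of the denser one. In shDPPA4 with dox a domain from 1002 to 4801 bp (160 reads) touched the window and was counted whole. In its control, domains at 2302 to 2701 bp (10 reads) and 3102 to 4501 bp (40 reads) lay outside the window and were left out. The summed reads thus compared unlike stretches there, which their interval does not cover.

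PCGF3 had a RING1B domain of 300 bp in both arms of shDPPA4, with 21 and 17 reads and a change of -0.66 (-1.68 to 0.33), and no domain in either arm of shDPPA2+4. PCGF2 had -0.27 (-0.50 to -0.03) in shDPPA4 and -0.92 (-1.34 to -0.49) in shDPPA2+4 by density, and -0.30 and -0.52 by summed reads, which without scaling were higher with dox in both lines. PCGF1 had -0.35 (-0.72 to 0.02) and -0.18 (-0.66 to 0.30) by density, and -0.37 (-0.72 to -0.02) and -0.64 (-1.11 to -0.16) by summed reads, and its unscaled density was higher with dox in both lines. PCGF6 had 0.16 (-0.75 to 1.07) and -0.01 (-1.24 to 1.29) by density, and -0.42 and -0.01 by summed reads. RING1 had -0.08 (-0.78 to 0.63) by both measures in shDPPA4, and in shDPPA2+4 it had a domain of 9 reads with dox only. PCGF5 had its domain of 8 reads in the shDPPA2+4 control only.

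Over the genes with a RING1B domain in both arms, 5 of 7 in shDPPA4 and 5 of 5 in shDPPA2+4 had a density change below 0, where 74.3% and 93.7% of promoters did. At least 1.5-fold lower density was seen at RNF2 and PCGF3 in shDPPA4 (23.9% of promoters) and at RNF2 and PCGF2 in shDPPA2+4 (61.9% of promoters). No member had a 1.5-fold higher density in either line for either protein, where 2.7% of promoters (RING1B) and 5.05% (DPPA4) were in shDPPA4, and 0.692% and 1.32% in shDPPA2+4. The median density change over the members was -0.27 in shDPPA4 and -0.54 in shDPPA2+4 for RING1B, and it was -0.69 and -0.64 for DPPA4. By summed reads the medians were -0.30 and -0.64 for RING1B and -1.74 and -1.31 for DPPA4. Relative to the median promoter the members' RING1B density medians were 0.02 and 0.18, so by density they were not below 0 without the overall shift. By summed reads the members' RING1B median was below that of all promoters in shDPPA4 (-0.30 against -0.043) and above it in shDPPA2+4 (-0.64 against -0.69). Summed RING1B reads were below 0 at 6 of 7 members in shDPPA4 (53.9% of promoters) and at 5 of 5 in shDPPA2+4 (89.2% of promoters).

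**Figure D3:**
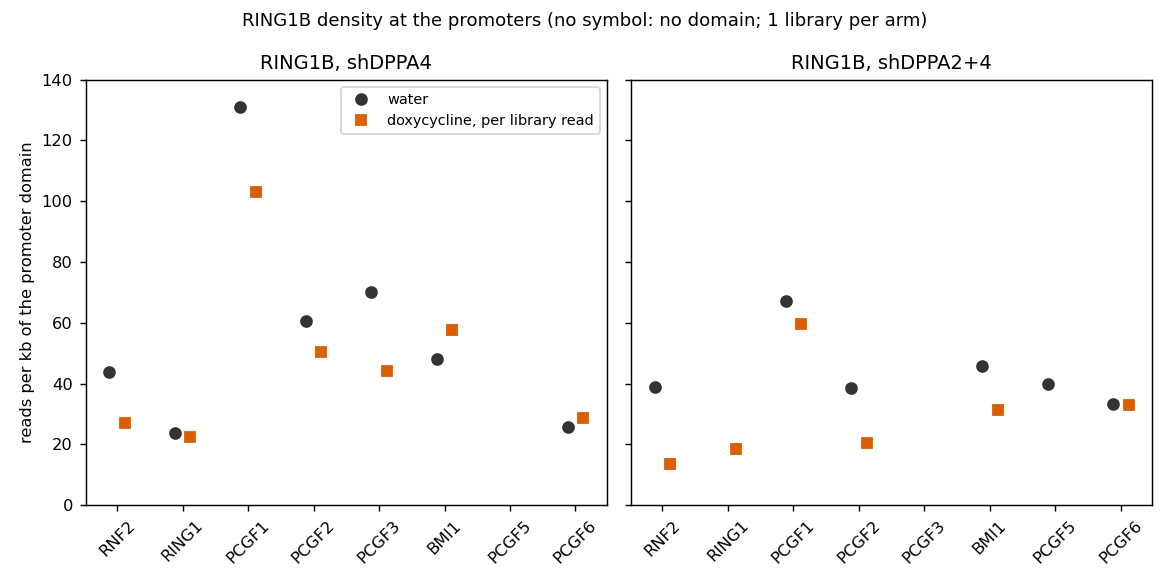
RING1B reads per kb of the promoter domain with water (circles) and with doxycycline per library read (squares) at the 8 genes in shDPPA4 (left) and shDPPA2+4 (right), 1 library per arm. PCGF1 is highest in all 4 libraries, and its small decrease in the plot is absent from the unscaled densities of both lines. The lower squares at RNF2 stand for longer domains (1700 and 1500 bp with doxycycline, 1100 and 900 bp with water), and in shDPPA4 its reads were 48 with water and 59 with doxycycline.

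**Figure D4:**
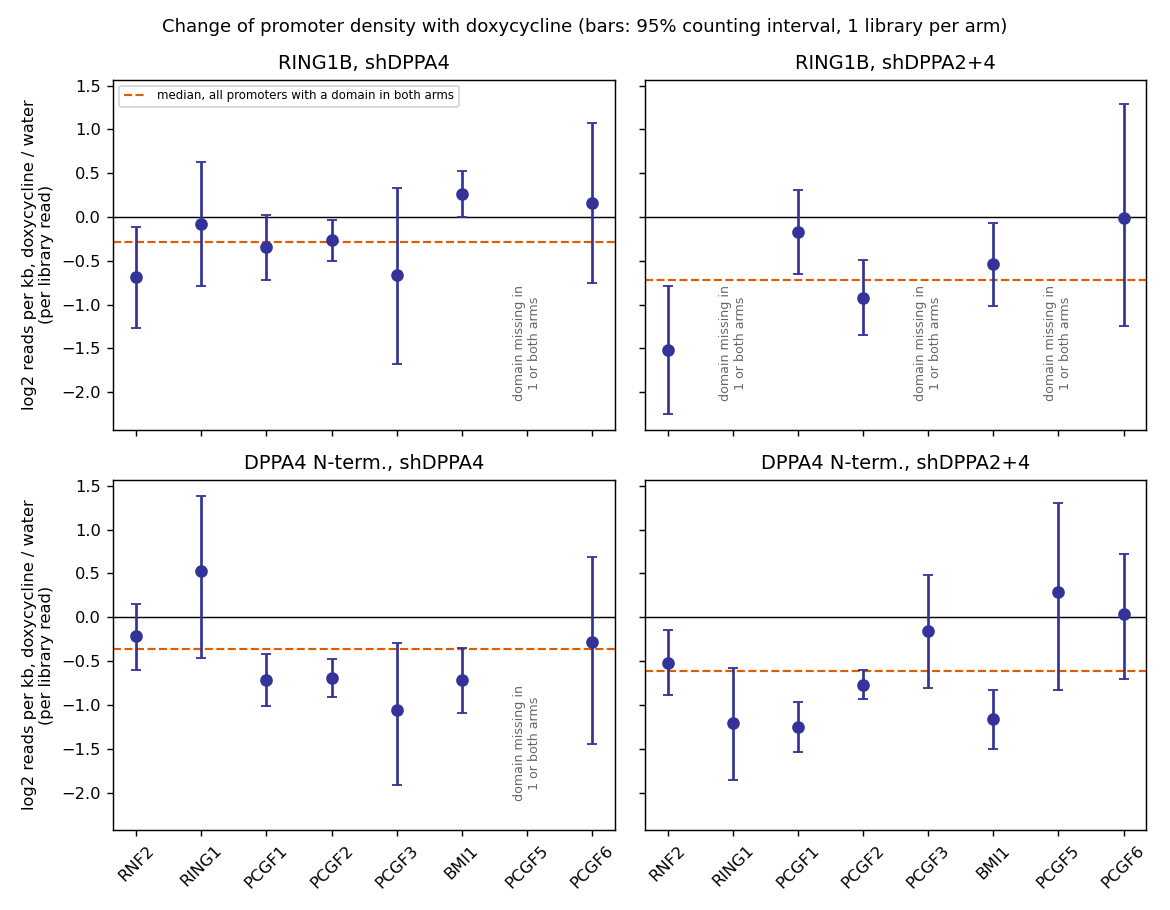
log2 ratio of reads per kb (doxycycline over water, per library read) of RING1B (top) and DPPA4 (bottom) in shDPPA4 (left) and shDPPA2+4 (right), with 95% counting intervals. The dashed line is the median over all promoters with a domain in both arms. Domains were called separately in each arm and differ in length. PCGF1 and BMI1 lie below the line for DPPA4 in both lines, and their densities were also lower without scaling.

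In H1299, the DPPA2 and the N-terminal DPPA4 antibody both had EPIC2 domains in both replicates at PCGF1, PCGF3 and BMI1, 3 of 8, which is near the 30.6% of all promoters. By MACS2, or with a log2 fold above 2, it was 0 of 8. At BMI1 the replicate 2 domains of these antibodies had 8 reads each. In replicate 1 alone 7 of the 8 had both (61.4% of promoters), PCGF5 being the exception, and in replicate 2 alone the same 3 did (30.7% of promoters). With no region in parental H661 but DPPA4 domains in both hairpin-line controls, PCGF3 had a domain in 11 of 12 H1299 libraries. Its percentile in replicate 1 was 74.3, 83.1 and 91.6 (lowest, median and highest of 6 antibodies) and in replicate 2 it was 55.1, 60.4 and 82.6 over the 5 antibodies with a domain. PCGF1 had 72.7, 83.2 and 95.6 in replicate 1, with domains from 115 to 281 reads. BMI1 had 38.3, 55.9 and 69.1, RNF2 25.8, 41.6 and 49.0, PCGF2 22.3, 33.3 and 65.6, and RING1 7.12, 16.4 and 33.4. PCGF6 had a median of 17.1 (5 libraries), near that of RING1, and PCGF5 had the lowest, 7.52 (4 libraries). The Flag monoclonal library of replicate 2 had a domain at 0 of the 8 and at 5.27% of all promoters, the fewest of any library.

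The 6 libraries of antibodies against DPPA2 or its Flag tag were compared with the 6 against DPPA4 or its V5 tag, by an exact two-sided permutation test at each promoter. A promoter without a domain counted as a log2 fold of 0. By the labels the DPPA2, Flag monoclonal and V5 antibodies are from mouse, and both DPPA4 antibodies and Flag superclonal from rabbit. Antibody host is thus partly confounded with the sides, and its part was not tested. At BMI1 in replicate 1 the mouse libraries had 0 IgG reads and the rabbit ones 8 or 9. Of 12624 promoters tested, 0 had an adjusted p below 0.05 in the exact permutation test with Benjamini-Hochberg adjustment, and 135 (1.07%) had an unadjusted p below 0.05. The smallest p the test can give is 0.00216, and 547 promoters would have had to reach it for any call, while 2 did. The test could therefore hardly call a promoter here. Its splits mixed the replicate numbers, and a version that permuted within replicate number is given in the last section. Both versions treated the 2 libraries of an antibody as separate units. The p-values therefore do not measure the spread between antibodies.

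RING1 was the member with the smallest p. In the DPPA4-directed libraries the log2 fold was 1.61, 3.53 and 5.55 (lowest, median and highest, the highest being the value of the caller for 14 reads over 0 IgG reads), and in the DPPA2-directed libraries it was 0, 1.42 and 3.30. All 6 of the former and 3 of the latter had a domain, and the groups overlapped. The difference of means was -2.19 (mean ± SD 1.51 ± 1.66 against 3.69 ± 1.31, n = 6 each, exact permutation p = 0.0368, adjusted p = 1). Within replicate 1 it was -0.47 and within replicate 2 -3.90, so most of it came from replicate 2, where the DPPA2-directed libraries had no domain. With MACS2 fold in place of EPIC2 fold the difference was -0.29.

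PCGF5 had a domain in 4 of 6 DPPA4-directed and 1 of 6 DPPA2-directed libraries, with a difference of -2.52 (exact permutation p = 0.0606, adjusted p = 1). PCGF2 had 6 of 6 against 3 of 6, with a difference of -1.97 (exact permutation p = 0.128, adjusted p = 1). The difference was nearest to 0 at RNF2, -0.02 (3.04 ± 1.77 against 3.06 ± 1.85, n = 6 each, exact permutation p = 0.959). PCGF1 had -0.38, BMI1 -0.43, PCGF3 -0.58 and PCGF6 -0.61. All 8 differences were below 0, but the share of all promoters below 0 was not counted, so this is not shown as a trait of the members. The Flag monoclonal library of replicate 2, with domains at 5.27% of promoters, entered the DPPA2 side as 0 at all 8. Without that antibody the difference at RNF2 was 0.47. Of the 8 differences, 0 passed the adjusted threshold. Some of these folds came from domains with 0 IgG reads, to which the caller gives a value that is no measured ratio. At BMI1 this held for 5 libraries, at PCGF2 for 3, and at PCGF5 and RING1 for 2.

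**Figure D5:**
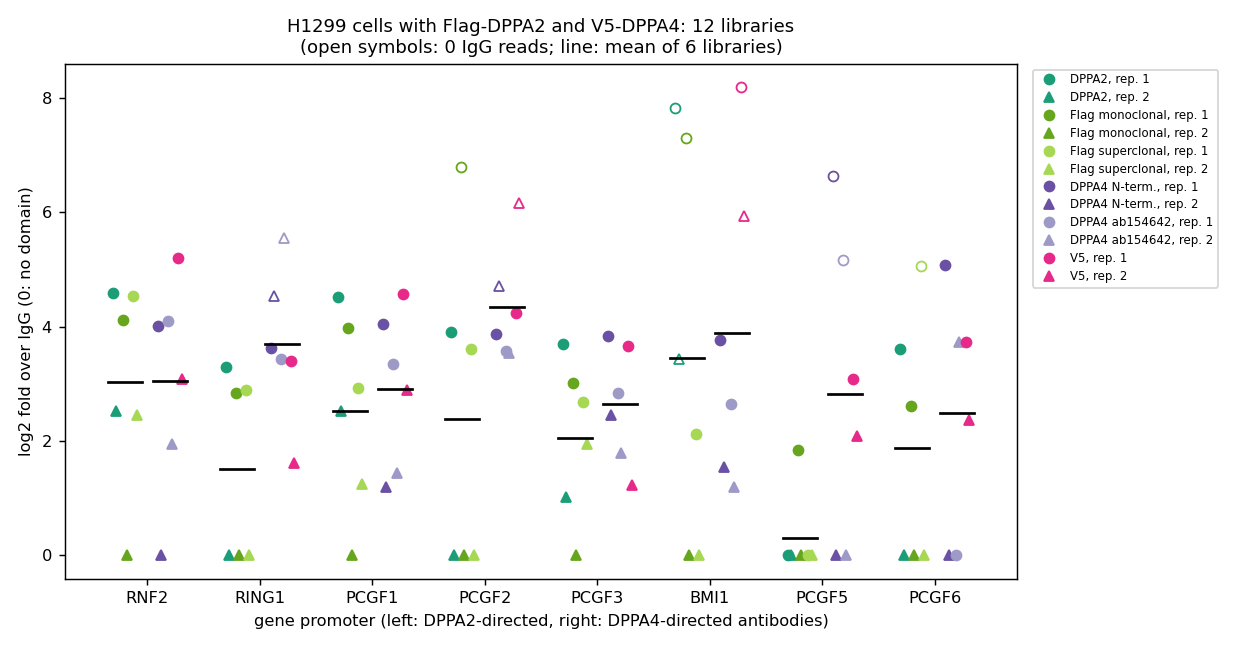
log2 fold over IgG of the promoter domain at the 8 genes in 12 H1299 libraries, with DPPA2-directed antibodies (DPPA2, Flag) left and DPPA4-directed antibodies (DPPA4, V5) right of each gene name. Circles are replicate 1 and triangles replicate 2, open symbols had 0 IgG reads, 0 means no domain, and lines are means of 6 libraries. At RING1 and PCGF2 all 6 DPPA4-directed libraries have a domain and the 3 DPPA2-directed ones of replicate 2 do not.

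The wider PRC1 list of 36 genes that encode partners of these proteins and enzymes acting on the same ubiquitin mark was bound as follows. DPPA2 and DPPA4 had peaks at 23 of the 36 in parental H661 (39.2% of all promoters), and RING1B had a domain in both control lines at 33 (57.6%). MTF2 had one at 30 (56.4%), EP300 at 28 (45.6%), PCGF1 at 11 (16%) and DPPA4 at 36 (67.1%). By mean RING1B log2 fold in the control lines the leading 5 were BCOR, PHC3, BCORL1, AUTS2 and KDM2B. Their IgG counts were 0 to 7, so this order is uncertain, and a domain with 0 IgG reads enters it with the value the caller gives. AUTS2, a partner of PCGF3 and PCGF5, had 37 RING1B reads over 1 IgG read in shDPPA4 and 88 over 7 in shDPPA2+4. KDM2B, which binds unmethylated CpG and brings PCGF1 complexes to it, had 9 reads in each line, at the 4.15th and 7.17th percentiles of RING1B density. By density the order was another, with CBX3, a heterochromatin protein also found in the PCGF6 complex, at the 98.5th and 97.1st percentiles. CSNK2A2, a catalytic subunit of casein kinase 2, was the gene of the list with no RING1B domain in either line.

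With dox in shDPPA2+4, the lowest changes of RING1B density were at FBRSL1 (-2.03, 24 reads over 300 bp to 19 over 600 bp), MAX (-1.53, 57 over 900 bp to 53 over 1500 bp) and MGA (-1.12, 65 over 1100 bp to 44 over 1000 bp). By summed reads these had -1.03, -0.99 and -0.67. MAX and MGA form a DNA-binding pair in the PCGF6 complex. The highest density changes were 0.10 at BCOR (6 reads over 200 bp to 26 over 500 bp) and -0.05 at CBX8 (149 over 2300 bp to 101 over 1000 bp) and PHC2 (84 over 1400 bp to 75 over 800 bp). By summed reads they had -1.04, -1.001 and -0.86, so the density order did not hold by reads. Of the 27 genes of the list with a RING1B domain in both arms 26 had a density change below 0 (median -0.67) and all 27 had fewer summed reads per library read (median -0.99), where the median promoter had -0.72 and -0.69. In shDPPA4 it was 23 of 32 by density (median -0.19) and 13 of 32 by summed reads (median 0.074).

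The genes whose percentiles over the 30 libraries were most like those of each member are given by Pearson r, without a test, since the libraries share cell lines, antibodies and depth. Genes with a TSS within 3000 bp were left out. For PCGF3 they were DHX15 (r = 0.90), FAM120B (0.86) and ENC1 (0.85). BMI1 had DOP1B (0.86), CDKN3 (0.83) and MRPL17 (0.83), and PCGF1 had NDUFB10 (0.85) and NME1 with its readthrough NME1-NME2 (0.80 each). PCGF5 had ATP8B1 (0.83), DLG5 (0.82) and SLC27A2 (0.81). PCGF6 had ZNF284 (0.80), SLC25A14 (0.77) and C1QTNF2 (0.76). RNF2 had PHYH (0.79), MAGEF1 (0.79) and SPNS2 (0.76), and PCGF2 had TRIP10 (0.75), PHF12 (0.74) and RABGGTA (0.74). RING1 had the weakest matches, PLP2 (0.67) and DDX19B with the overlapping ENSG00000260537 (0.67 each). None of the 8 was among the 3 nearest genes of another. The highest r between members was 0.54 (BMI1 and PCGF5), and that of the paralogues RNF2 and RING1 was 0.04.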

How the data were processed

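CUT&RUN libraries of H661 and H1299 lines were used as deposited. Per the submitters' processing notes and the methods, the authors trimmed reads with Trim Galore (0.6.6), aligned them with BWA (0.7.13) to hg38, used SAMtools (1.9) and marked duplicates with Picard (2.6.0). The authors called peaks with MACS2 (2.27.1 in the notes), each library alone against IgG, and deposited EPIC2 domains. The limits of EPIC2 for CUT&RUN are stated (FDR and log2 fold, used below), and its bin and gap options are stated for histone ChIP only. The deposited EPIC2 files give whole-number read counts of library and IgG, a log2 fold change scaled for library size, a p-value and FDR, and a score equal to the log2 fold times 100. The deposited MACS2 files give fold enrichment (a ratio), −log10 p-values and q-values, a score from the q-value and a summit.

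Here regions on autosomes and chromosome X with FDR below 0.05 and log2 fold above 1 (MACS2 fold above 2) were kept, without the study's blacklist. MACS2 was used for parental H661 and EPIC2 elsewhere. Promoters were the canonical TSS ± 1500 bp of GENCODE 44. All regions lay within the chromosomes of GRCh38. Where dox and control libraries had a domain with the same ends, its IgG count was the same in both, so these pairs shared an IgG control, and the constant between log2 fold and the ratio of counts gave their relative size. Counting intervals are exact binomial (95%). Parental DPPA2, from a mouse antibody, was compared with rabbit IgG according to its file name. The permutation test of H1299 was checked on simulated data. The H1299 replicate numbers were not taken as pairs of libraries. Python 3.11.15, pandas 2.3.3, numpy 2.4.6 and scipy 1.17.1 were used. The members and gene lists were chosen with earlier results of these data known. Genes named were all members, the 3 most similar genes of each by r, genes starting near them and, from the PRC1 list, the 5 with the highest mean RING1B fold, those with no RING1B, and the 3 lowest and 3 highest changes of RING1B in shDPPA2+4. Alternatives covered the window, caller, fold limit, TSS choice, antibody, scaling, replicates and the replicate block. Library depth beyond the regions is not known, which limits the low domains to what few reads allow.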

Additional observations from a re-analysis of the deposited data

Results flagged for a closer look

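In 4 cases a member had values of opposite sign in the 2 hairpin lines with doxycycline. With 1 library per arm the difference between the lines was not tested. RING1B at BMI1 was 0.26 in shDPPA4 and -0.54 in shDPPA2+4 (log2 change of density per library read). Its unscaled density was higher with doxycycline in both lines. RING1B at PCGF6 was 0.16 and -0.015, and DPPA4 at PCGF6 was -0.28 and 0.033, each with intervals that took in 0 in both lines. DPPA4 at RING1 was 0.53 in shDPPA4, from a domain of 12 reads, and -1.21 in shDPPA2+4. By summed reads DPPA4 at RING1 and at PCGF6 was below 0 in both lines.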

How the results depend on the processing

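Counts of bound members mostly stayed within 1.5 times of the reported ones. In parental H661 the central-region DPPA4 antibody gave 0 in place of 5. In both H1299 replicates the count of 3 became 0 with MACS2 and 0 with a log2 fold above 2, and without either replicate it ranged from 3 to 7, the 7 being without replicate 2. The PCGF1 antibody's 4 became 0 with MACS2 and 2 with a log2 fold above 2, which also gave 4 for MTF2 (from 7) and 3 for EP300 (from 6). The members' median change with doxycycline depended on the scaling. Without scaling it was 0.093 for RING1B in shDPPA4, 0.16 for RING1B in shDPPA2+4, -1.52 for DPPA4 in shDPPA4 and 0.30 for DPPA4 in shDPPA2+4. Centred on the median promoter it was 0.019, 0.18, -0.33 and -0.031 in that order. MACS2 fold enrichment gave -1.07 for DPPA4 in shDPPA4, and the difference of log2 fold over IgG gave -1.09 for DPPA4 in shDPPA2+4. Summed reads in place of density, chosen after seeing the data, gave -1.74 for DPPA4 in shDPPA4 and -1.31 for DPPA4 in shDPPA2+4. The cause of these moves was not tested. In H1299, 0 promoters were called under all 8 alternatives, including the replicate block, which permutes within replicate number and gave 0 calls with 916 promoters at an unadjusted p below 0.05 (135 without it). Leaving out either replicate fixes 0 calls beforehand, since the smallest p is then 0.1. Under the block RING1 had an exact permutation p = 0.005, the smallest it can give, with an adjusted p of 0.59, against 0.84 to 1 under the other alternatives. Correlations between libraries of the same replicate number ran from -0.43 to 0.55 (median 0.04). Between different numbers they ran from -0.40 to 0.30 (median -0.089), and the numbers were not taken as pairs. These correlations do not test for a difference in level between replicates. At RNF2 the mean log2 fold was 4.42 in replicate 1 and 1.67 in replicate 2. Differences between antibodies turned positive at PCGF1 with MACS2 (0.22) and at RNF2 by percentile of the log2 fold (1.94 percentile points), by percentile of the density (1.00 percentile point, chosen after seeing the data) and without the Flag monoclonal antibody (0.47). Without replicate 1 or 2 the difference ranged from -4.81 to 0.88 at PCGF2 and from -1.75 to 0.88 at BMI1, and without replicate 2 it was 0.82 at PCGF6.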
